A study of Mus musculus with 6 samples.

Results

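Teneurins and latrophilins are 7 genes among the 55450 whose RNA was counted in 6 mouse tumours: Tenm1, Tenm2, Tenm3 and Tenm4 encode the teneurins, and Adgrl1, Adgrl2 and Adgrl3 encode latrophilins 1 to 3. The genes were taken by symbol, and each symbol had 1 row in the tables. The family was selected on measured values, because Tenm4 lay among the genes that were lowest in PV-10 tumours relative to controls. Its difference is therefore given as a description with no test, and the other 6 genes entered with it as members of the family.

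The tumours grew from MTE-RAS cells, mouse tracheal epithelial cancer cells carrying an oncogenic RAS mutation, that had been placed under the skin of the right flank of C57BL/6 mice. Phosphate-buffered saline (PBS) was injected into the lesion in 3 mice. PV-10, which contains the dye rose bengal, was injected into it in the other 3. All 6 tumours share the cell line, the RAS transformation and the host strain, and the labels give neither a dose, nor the time from injection to collection, nor the animals' age. The tumour cells come from 1 line, and each library holds RNA of the whole tumour, the host's cells included.

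Teneurins are very large adhesion proteins anchored in the plasma membrane with their C-terminal part outside the cell. They bind latrophilins on the neighbouring cell, and both families are best known from synapses, where this contact helps to decide which neurons connect. Latrophilins belong to the adhesion G protein-coupled receptors, whose long extracellular part is cleaved near the membrane, and they also bind the FLRT proteins. Several of the genes are active outside the nervous system as well.

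Tenm3, Tenm4, Adgrl1, Adgrl2 and Adgrl3 were the members with appreciable RNA in the control tumours, and every one of them was lower in each PV-10 tumour than in each PBS tumour. Sequences in front of RefSeq transcription starts of these genes are given first, as a description. Whether their CG content is related to the size of the change was not tested. Each sequence is the part of the 250 bases before a RefSeq start (build GRCm38.p6) that lies outside the exons of the gene's Gencode transcripts, retained introns aside, written 5′ to 3′ on the strand of the gene. Capitals mark each CG dinucleotide. The Tenm4 window is chr7:96170994-96171243 on the plus strand, and the Adgrl1 window is chr8:83899848-83900097 on the plus strand. The Tenm3 stretch is chr8:48674723-48674940 on the minus strand and lies inside the gene, before an inner start. The Adgrl2 stretch is chr3:148954788-148954885 on the minus strand, also inside the gene. The Adgrl3 window is chr5:81020321-81020570 on the plus strand, within a retained-intron transcript of the gene.
Tenm4: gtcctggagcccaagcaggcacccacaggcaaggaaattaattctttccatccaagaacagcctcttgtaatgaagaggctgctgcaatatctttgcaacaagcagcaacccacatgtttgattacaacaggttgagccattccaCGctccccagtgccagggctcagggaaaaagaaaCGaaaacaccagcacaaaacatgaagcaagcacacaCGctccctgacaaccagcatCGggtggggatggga
Tenm3: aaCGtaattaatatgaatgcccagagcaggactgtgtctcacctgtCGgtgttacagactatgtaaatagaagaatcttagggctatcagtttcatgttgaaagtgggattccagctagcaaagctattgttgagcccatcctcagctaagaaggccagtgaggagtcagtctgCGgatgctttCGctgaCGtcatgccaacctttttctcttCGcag
Adgrl1: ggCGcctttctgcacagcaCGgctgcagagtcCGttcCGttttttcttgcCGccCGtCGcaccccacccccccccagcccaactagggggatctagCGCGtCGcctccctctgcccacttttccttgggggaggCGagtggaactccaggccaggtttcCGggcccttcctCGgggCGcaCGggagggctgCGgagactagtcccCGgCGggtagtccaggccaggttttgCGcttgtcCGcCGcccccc
Adgrl2: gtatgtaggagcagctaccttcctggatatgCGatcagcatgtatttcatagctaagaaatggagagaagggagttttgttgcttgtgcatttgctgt
Adgrl3: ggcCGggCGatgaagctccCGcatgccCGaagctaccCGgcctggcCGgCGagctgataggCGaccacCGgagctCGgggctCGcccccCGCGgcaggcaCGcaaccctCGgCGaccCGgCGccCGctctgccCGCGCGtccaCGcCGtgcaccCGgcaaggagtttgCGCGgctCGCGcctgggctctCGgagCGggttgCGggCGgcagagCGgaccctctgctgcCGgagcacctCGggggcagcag

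In the full windows of 250 bases, Adgrl3 held 36 CG dinucleotides, more than 97.4% of the 32851 windows in the RefSeq table, and Adgrl1 held 21, more than 83.7%. The Tenm3 window held 8, the Tenm4 window 4 and the Adgrl2 window 3, against a median of 6 over all windows. Adgrl3 has 2 further RefSeq windows with 18 each, and Tenm4 has 1 further window with 8. The windows of the scarcely expressed Tenm1 and Tenm2 held 0 and 2. Among motifs searched on both strands, the GC box GGGCGG was in 32.7% of all windows and occurred 2 times in the Adgrl1 window and once in the Adgrl3 window shown, with further matches in the other Adgrl3 windows. The TATA box TATAAA, in 12.4% of all windows, occurred in the Adgrl2 window, in that of Tenm1 and in 1 of the further Adgrl3 windows. The letters of the AP-1 site TGANTCA (6.75% of windows) and of the E-box CACGTG (6.02%) were in none of the members' windows. These matches describe letters in a window and do not show a bound site.

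Sequencing depth ran from 36730318 counts in PV-10 tumour 2 to 98717951 in PBS tumour 3, and counts were scaled by library total and edgeR's TMM factor to CPM. A floor of 3 counts equals 0.0290 to 0.0821 CPM on this scale, depending on the library, and covers counting error only. PV-10 tumours 1 and 2 were the shallowest libraries, with 60082066 and 36730318 counts, and PV-10 tumour 3, with 94203331, was as deep as the controls. Markers of the labelled epithelial origin were uneven. The keratin genes Krt8 and Krt18 averaged 324 ± 79.4 and 311 ± 71.8 CPM (SD, n = 3) in PBS tumours, whereas Cdh1 (E-cadherin) averaged 9.27 CPM, Epcam 0.233, Krt5 0.259, Krt14 1.15 and Trp63 0.840. The mesenchymal filament gene Vim averaged 4209 ± 686 CPM there.

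Among the teneurins, the ligands of the pair, Tenm4 (ENSMUSG00000048078.16; GRCm38 chromosome 7, 96171246 to 96911093, plus strand) had the largest fall on the log2 scale, the trait it was chosen for. Teneurin-4 is known from the myelination of the central nervous system. PBS tumours 1, 2 and 3 had 137.5, 87.4 and 159.1 CPM of Tenm4, and PV-10 tumours 1, 2 and 3 had 10.7, 21.3 and 21.4. The groups were far apart, with the highest PV-10 tumour well under the lowest PBS tumour. The mean of 128 ± 36.8 CPM in PBS tumours was 7.19-fold that of 17.8 ± 6.15 CPM in PV-10 tumours (SD, n = 3). On the log2 scale the fitted difference, PV-10 minus PBS, was -2.85, and 35 of the 22056 genes tested, 0.159%, had a lower one.

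Tenm3 (ENSMUSG00000031561.16; chromosome 8, 48227682 to 48843951, minus strand) encodes the teneurin known from the wiring of visual and hippocampal circuits. Its values were 111.5, 145.0 and 220.0 CPM in PBS tumours 1 to 3, and 29.9, 34.3 and 53.2 CPM in PV-10 tumours 1 to 3. No PV-10 tumour reached the level of the lowest PBS tumour. Tenm3 fell from 159 ± 55.6 to 39.1 ± 12.4 CPM (SD, n = 3), a 4.06-fold difference, and the log2 change was -2.02 ± 0.36 (SE; edgeR adjusted p = 0.0443). PV-10 tumours held 18.8%, 21.6% and 33.5% of the PBS mean of Tenm3, and 8.36%, 16.6% and 16.7% of that of Tenm4. By CPM tumour 1 was the lowest of the PV-10 tumours in both genes, whereas by TPM it was tumour 2 for Tenm3.

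Tenm1 (ENSMUSG00000016150.15; chromosome X, 42527866 to 43429126, minus strand) and Tenm2 (ENSMUSG00000049336.16; chromosome 11, 36006656 to 37235964, minus strand) were barely present. Tenm1 had 18, 8 and 11 counts in PBS tumours, and 107, 102 and 0 in PV-10 tumours 1, 2 and 3. Tenm2 had 25, 14 and 7 counts in PBS tumours, and 76, 128 and 18 in PV-10 tumours. Both were thus higher in PV-10 tumours 1 and 2 than in any control, while PV-10 tumour 3 lay within or under the range of the controls. Their log2 changes of 3.54 (SE 1.81) for Tenm1 and 3.32 (SE 1.33) for Tenm2 did not pass the test, with edgeR adjusted p of 0.220 and 0.129.

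That arrangement was frequent among weakly expressed genes. Of the 6772 tested genes with a PBS mean under 0.5 CPM, 37.5% had PV-10 tumours 1 and 2 above every PBS tumour and tumour 3 not, and 92.7% had a log2 change above 0, with a median of 2.46. No member passed the test as higher, against 3.17% of all genes tested. Without PV-10 tumour 3, Tenm1 and Tenm2 both passed it, with edgeR adjusted p of 0.0204 and 0.0283, when 25% of the 27510 genes then tested also did. The part of depth or of this tumour in these values was not tested.

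Latrophilins are the receptors. Adgrl1 (ENSMUSG00000013033.16; chromosome 8, 83900105 to 83941954, plus strand) encodes latrophilin-1, first known as the receptor of the black widow spider toxin. It had 45.6, 48.1 and 58.0 CPM in PBS tumours 1 to 3, and 10.6, 10.2 and 20.7 CPM in PV-10 tumours 1 to 3. The control tumours were close together, and PV-10 tumour 3 stood above the other PV-10 tumours while staying under all controls. Adgrl1 fell from 50.5 ± 6.54 to 13.8 ± 5.92 CPM (SD, n = 3), which is 3.65-fold, and the log2 change was -1.87 ± 0.33 (SE; edgeR adjusted p = 0.0443).

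Adgrl2 (ENSMUSG00000028184.12; chromosome 3, 148815583 to 148990555, minus strand) encodes latrophilin-2, which in the hippocampus marks particular synapses of pyramidal neurons. PBS tumours 1 to 3 had 161, 154 and 141 CPM of it, and PV-10 tumours 1 to 3 had 36.7, 38.2 and 94.2 CPM. Adgrl3 (ENSMUSG00000037605.16; chromosome 5, 81020138 to 81825133, plus strand) encodes latrophilin-3, a partner of both teneurins and FLRT proteins. It had 184, 191 and 180 CPM in PBS tumours 1 to 3, and 51.1, 65.6 and 116 CPM in PV-10 tumours 1 to 3. In both genes the controls differed little from each other, the groups did not overlap, and PV-10 tumour 3 lay between the controls and the other PV-10 tumours.

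The means went from 152 ± 10.3 to 56.4 ± 32.7 CPM for Adgrl2 and from 185 ± 5.73 to 77.7 ± 34.3 CPM for Adgrl3 (SD, n = 3). The log2 changes of -1.43 (SE 0.39) and -1.25 (SE 0.34) missed the threshold, with edgeR adjusted p of 0.0578 and 0.0568. PV-10 tumour 3 held 62.0% of the PBS mean of Adgrl2 and 62.9% of that of Adgrl3, where tumours 1 and 2 held 24.2% to 35.5%. Without that tumour both genes passed, with log2 changes of -2.02 and -1.66 and edgeR adjusted p of 0.000512 and 0.000680.

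**Figure D1:**
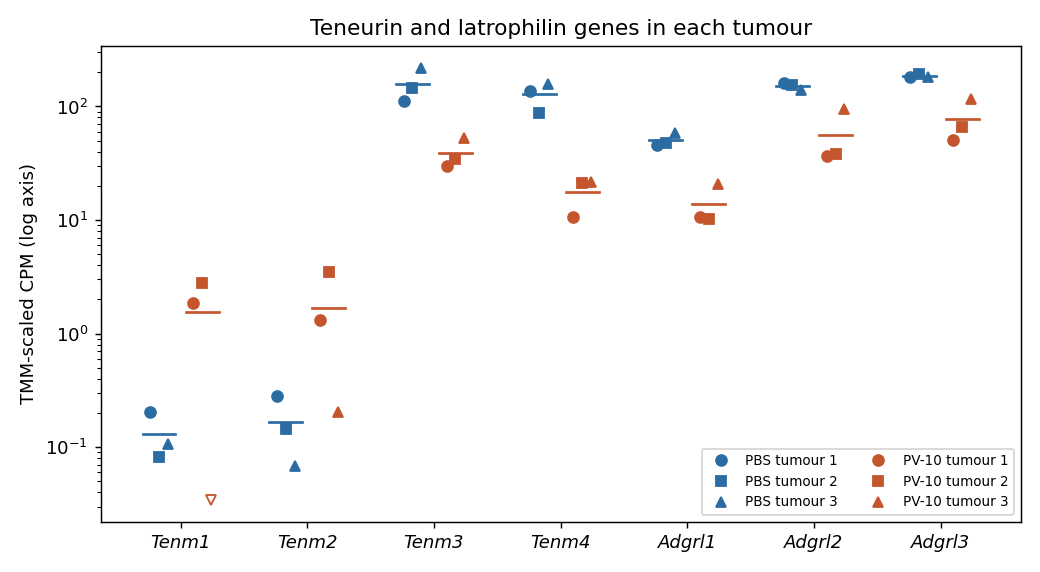
TMM-scaled CPM on a log axis for each gene, with 1 point per tumour and a line at the group mean, PBS in blue and PV-10 in orange; the open triangle is the count of 0 for Tenm1 in PV-10 tumour 3, drawn at its floor of 0.0342 CPM. Tenm3, Tenm4 and the latrophilin genes are separated between the groups, while PV-10 tumour 3 lies under the control range for Tenm1 and within it for Tenm2.

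In all, 3 of the 7 members passed the test as lower, against 1.92% of the 22056 genes tested, and Tenm4, chosen for this difference, is 1 of the 3, so nothing is read from that count. For 5 of the 7 every PV-10 tumour lay below every PBS tumour, which held for 16.8% of the genes tested. The members' median log2 change was -1.43, and that of all genes tested 0.30. It was -0.70 for tested genes with a PBS mean of at least 50 CPM, to which these 5 belong. The 5 and the members' median also include Tenm4, so nothing is read from them either. Calls depended on which tumours entered. Leaving out any 1 tumour other than PV-10 tumour 3 left neither Tenm3 nor Adgrl1 called by edgeR, with adjusted p from 0.0735 to 0.205, and 0 or 1 gene of the whole table was then called lower. Without PV-10 tumour 3, Tenm3, Adgrl1, Adgrl2 and Adgrl3 were called lower, against 16.4% of genes. DESeq2 on all tumours called the same 4 genes lower, against 8.63% of genes.

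Length moved with the change across all genes, and the members are long. The effective length, the mean transcript length that the ratio of counts to TPM (transcript abundance scaled for length) implies, was 7245 bases for Tenm4, 6941 for Tenm3, 5328 for Adgrl1, 3546 for Adgrl2 and 3325 for Adgrl3. Of the 1904 tested genes of at least 5 kb, 12.3% were called lower and the median log2 change was -0.58. Of the 4753 genes of 3 to 5 kb, 2.9% were called lower and the median was -0.14, while it was 1.21 for the genes under 0.5 kb. The 5 expressed members thus lay under the median of genes of their own length, Tenm4 by the widest margin.

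After each tumour's trend with effective length was removed, the log2 changes were -2.44 for Tenm4, -1.60 for Tenm3, -1.47 for Adgrl1, -1.22 for Adgrl2 and -1.08 for Adgrl3. With a trend in the longest transcript's length and GC content removed, they were -2.22, -1.40, -0.81, -1.05 and -0.82 in the same order. The direction held in both, and neither left any gene of the table called by edgeR. Tenm3, Adgrl1, Adgrl2 and Adgrl3 were at an unadjusted p under 0.05 in both, as were 2602 and 2478 genes of the table with a lower value. Expression level also moved with the change: among the 3740 genes with a PBS mean of at least 50 CPM, to which Tenm3, Tenm4, Adgrl1, Adgrl2 and Adgrl3 belong, 310 were called lower and the median was -0.70.

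**Figure D2:**
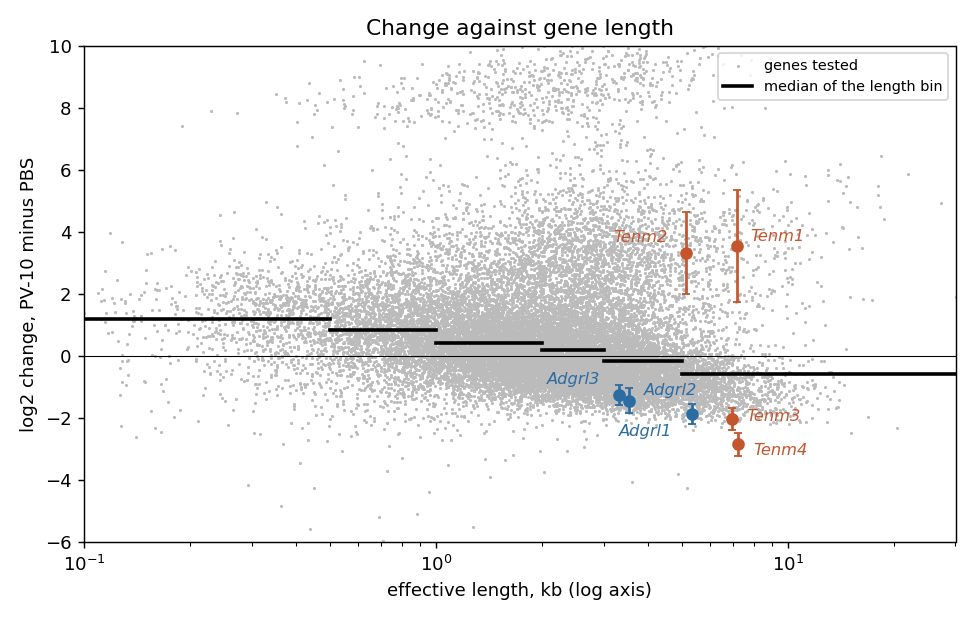
Log2 change, PV-10 minus PBS, against effective length in kb on a log axis for the genes tested (grey), with the median of each length bin as a black line and the members in colour with bars of 1 SE. The bin medians decline from 1.21 for genes under 0.5 kb to -0.58 for genes of at least 5 kb, and Tenm3, Tenm4 and the latrophilin genes lie under them.

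Levels of different genes were compared by TPM, which is scaled for length. In PBS tumours Adgrl3 was the most abundant member with a mean of 49.2 TPM (43.4 to 58.4 over the 3 tumours), ahead of Adgrl2 with 37.8 (31.5 to 45.2), and their ranges overlapped. Tenm3 followed with 20.9 TPM (12.7 to 28.3) and Tenm4 with 15.5 (13.9 to 17.5), also overlapping. Adgrl1 had 7.67 TPM (4.61 to 10.3), below every tumour's value of the other 4. Tenm2 and Tenm1 were near 0, with means of 0.033 and 0.010 TPM. By their mean TPM, 93.5% of the genes tested were less abundant than Adgrl3 and 80.0% were less abundant than Tenm4. CPM per kb of effective length gave the same order of the 7 genes.

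On the TPM scale the groups remained apart for all 5 expressed members. Tenm4 had 13.9, 15.0 and 17.5 TPM in PBS tumours and 0.91, 2.07 and 1.39 in PV-10 tumours 1 to 3. Tenm3 had 12.7, 21.7 and 28.3 TPM in PBS tumours and 2.15, 1.81 and 4.23 in PV-10 tumours. Tenm3 and Tenm4 were both under 5 TPM in every PV-10 tumour. For the latrophilins, Adgrl1 had 4.61, 8.14 and 10.3 TPM in PBS tumours and 1.68, 0.59 and 3.71 in PV-10 tumours. Adgrl2 had 31.5, 45.2 and 36.8 TPM in PBS tumours and 4.74, 5.20 and 16.98 in PV-10 tumours. Adgrl3, the most abundant in each group, had 43.4, 58.4 and 45.9 TPM in PBS tumours and 8.31, 9.50 and 21.1 in PV-10 tumours.

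CPM and TPM spaced the PV-10 tumours differently for Adgrl1, Tenm3 and Tenm4, whose implied length varied between libraries. For Tenm3 it was 6478, 6809 and 7040 bases in PBS tumours 1 to 3, and 6024, 8913 and 8042 bases in PV-10 tumours 1 to 3. For Adgrl1 it was 7277, 6020 and 5110 bases in PBS tumours 1 to 3, and 2741, 8139 and 3562 bases in PV-10 tumours 1 to 3. For Tenm4 it was 7293, 5935 and 8212 bases in PBS tumours, and 5094, 4833 and 9853 bases in PV-10 tumours. Tenm3 and Tenm4 thus had another order of PV-10 tumours by TPM than by CPM. Adgrl2 stayed between 3357 and 3762 bases in all 6 tumours, and Adgrl3 between 2664 and 3556. Gencode lists 10 transcripts for Adgrl1, 12 for Tenm4, 20 for Adgrl2 and 35 for Adgrl3. The tables give values per gene, and which transcripts carried the reads was not analysed here.

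**Figure D3:**
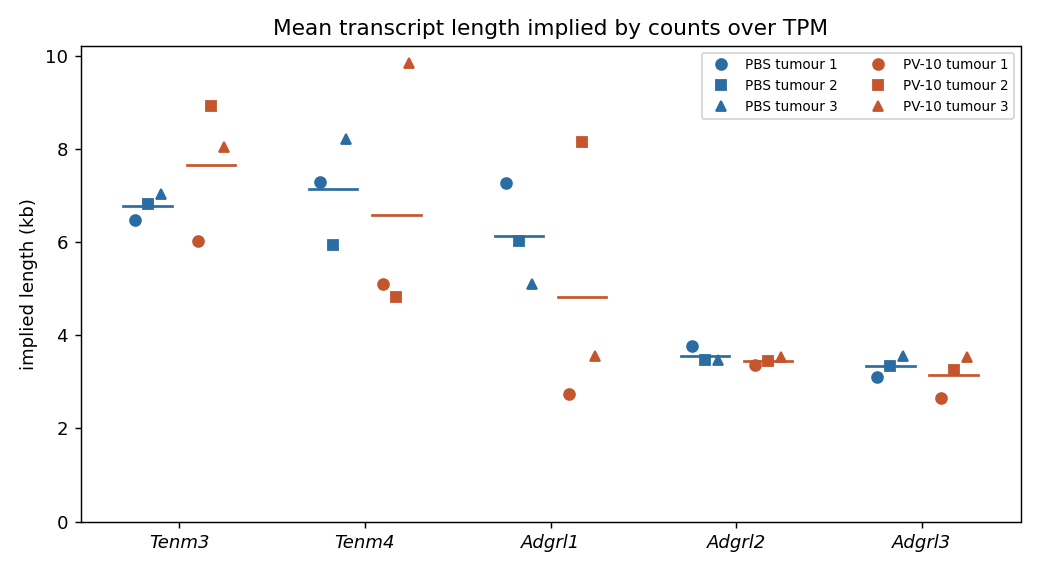
Mean transcript length in kb implied by counts over TPM for the 5 expressed members, 1 point per tumour and a line at the group mean. Adgrl2 and Adgrl3 are tight, whereas Adgrl1 runs from 2741 to 8139 bases among PV-10 tumours alone and Tenm4 from 4833 to 9853.

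Summed latrophilin and summed teneurin RNA were compared within each tumour on both scales. Summed latrophilin TPM was 2.99, 3.04 and 2.03 times summed teneurin TPM in PBS tumours 1 to 3, and 4.45, 3.56 and 7.36 times in PV-10 tumours 1 to 3. By CPM, which is not per length and serves only to compare tumours, the ratio was 1.56, 1.69 and 0.999 in PBS tumours, and 2.25, 1.84 and 3.09 in PV-10 tumours. Neither ratio overlapped between the groups, with teneurins forming the smaller share after PV-10. Tenm4 is part of the teneurin sum and was chosen for its low values, so that choice itself favoured a smaller teneurin share. The ratios were therefore given no test, and nothing is read from their separation. The CPM of Tenm4 relative to Tenm3 was 1.23, 0.603 and 0.723 in PBS tumours and 0.358, 0.620 and 0.403 in PV-10 tumours, and here the groups overlapped. Among the latrophilins, Adgrl3 made up 47.0% to 48.7% of the summed CPM in PBS tumours and 50.3% to 57.6% in PV-10 tumours, while by TPM its share of 49.4% to 54.6% overlapped that of 50.4% to 62.1%.

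Genes that share sequence positions with the members added little. The most counted was Gm43594, annotated within Adgrl3 on the same strand, with at most 898 counts in a library. Gm19744, opposite to Tenm3, reached 344, and Gm15413, antisense to Tenm4, reached 114. For the scarce Tenm1 this did not hold. Sh2d1a, on the opposite strand, had 0, 0 and 27 counts in PBS tumours 1 to 3 and 39, 49 and 14 in PV-10 tumours 1 to 3. Tenm1 itself had 18, 8 and 11, and 107, 102 and 0. The libraries were strand-specific, but the sources used here do not give the strand setting of the counting, so reads of overlapping genes may not be fully told apart.

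The other proteins that teneurins and latrophilins bind, or signal through, gave a mixed picture. Of 26 such genes 25 were tested, and 1 fell and 0 rose by edgeR, against 1.92% and 3.17% of all genes tested. At an unadjusted edgeR p under 0.05, 11 were lower and 2 higher, against 3189 and 3438 of the 22056 genes tested. Their median log2 change was -0.70, against 0.30 over all genes tested, and in 11 every PV-10 tumour lay below every PBS tumour, as in 16.8% of all genes tested. In 1 every PV-10 tumour lay above every PBS tumour, as in 4850 of the 22056 genes tested. The 11 ligand and co-receptor genes tested had a median of 0.87, with 5 below 0 and 2 of them without overlap as lower. The 14 intracellular partners had a median of -0.92. The gene that fell was Unc5b, a netrin receptor of a family that binds FLRT proteins. It had 113, 189 and 213 CPM in PBS tumours 1 to 3 and 26.1, 31.7 and 74.0 CPM in PV-10 tumours 1 to 3. As for the latrophilin genes, PV-10 tumour 3 was the highest of its group, and the log2 change of Unc5b was -1.96 ± 0.44 (SE; edgeR adjusted p = 0.0451). That call was also lost when any tumour other than PV-10 tumour 3 was left out, with adjusted p from 0.0777 to 0.218.

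The FLRT genes, whose products are the other main ligands of latrophilins, did not pass the test. Flrt2 averaged 77.0 ± 36.5 CPM in controls and 43.0 ± 15.7 after PV-10 (log2 change -0.84, edgeR adjusted p = 0.221), and Flrt3 averaged 35.3 ± 9.71 and 24.9 ± 12.0 CPM (-0.50, adjusted p = 0.408). Flrt1 was scarce, at 0.798 and 2.35 CPM. Of the other netrin receptor genes, Unc5c averaged 7.22 and 13.2 CPM, Unc5a 2.32 and 1.03, and Unc5d 0.299 and 0.602, and none of these passed. Dag1, which encodes the matrix receptor dystroglycan, averaged 208 ± 30.6 and 62.5 ± 45.1 CPM without overlap between the groups (-1.73, edgeR adjusted p = 0.0558).

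No intracellular partner passed the test. All 14 were tested, 12 had a log2 change below 0 with a median of -0.92 for the 14, and in 9 every PV-10 tumour lay below every PBS tumour, as in 16.8% of all genes tested. Among all genes with a PBS mean of at least 50 CPM, 22.8% had a log2 change above 0 and the median was -0.70, so most abundant genes were also below 0. These 9 include the genes of the G protein alpha subunits Gna12, Gna13, Gnaq, Gna11 and Gnai2. Gna13 averaged 131 ± 13.9 and 62.2 ± 31.4 CPM (log2 change -1.07, edgeR adjusted p = 0.0832), and Gnaq averaged 97.7 ± 1.84 and 51.4 ± 14.9 CPM (-0.92, adjusted p = 0.0687). PV-10 tumour 3 was the nearest to the controls for each of these 5 genes.

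The wider adhesion receptor family was compared in the same way. Of the 27 other adhesion G protein-coupled receptor genes 25 were tested, and 2 fell and 0 rose by edgeR, against 1.92% and 3.17% of all genes tested. At an unadjusted edgeR p under 0.05, 5 were lower and 6 higher, against 3189 and 3438 of the 22056 genes tested. The median log2 change was 0.22, and 12 of the 25 were below 0. The groups did not overlap in 4 of the 25 genes that were lower and in 5 that were higher after PV-10. Over all 22056 genes tested this held for 3700 that were lower and 4850 that were higher. Adgrg6, which encodes a receptor needed by Schwann cells to form myelin, fell from 60.0 ± 2.06 to 21.1 ± 6.67 CPM (log2 change -1.50, edgeR adjusted p = 0.0443). Adgra2, which encodes a WNT7 co-receptor of brain blood vessels, fell from 52.9 ± 34.9 to 11.1 ± 2.92 CPM (-2.25, adjusted p = 0.0462), with only 17.5 CPM in PBS tumour 1. Both calls were lost when any tumour other than PV-10 tumour 3 was left out. Adgrl4, named with the latrophilins but known from endothelial cells, averaged 25.1 ± 5.94 and 24.9 ± 10.03 CPM (-0.0070, adjusted p = 0.991).

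**Figure D4:**
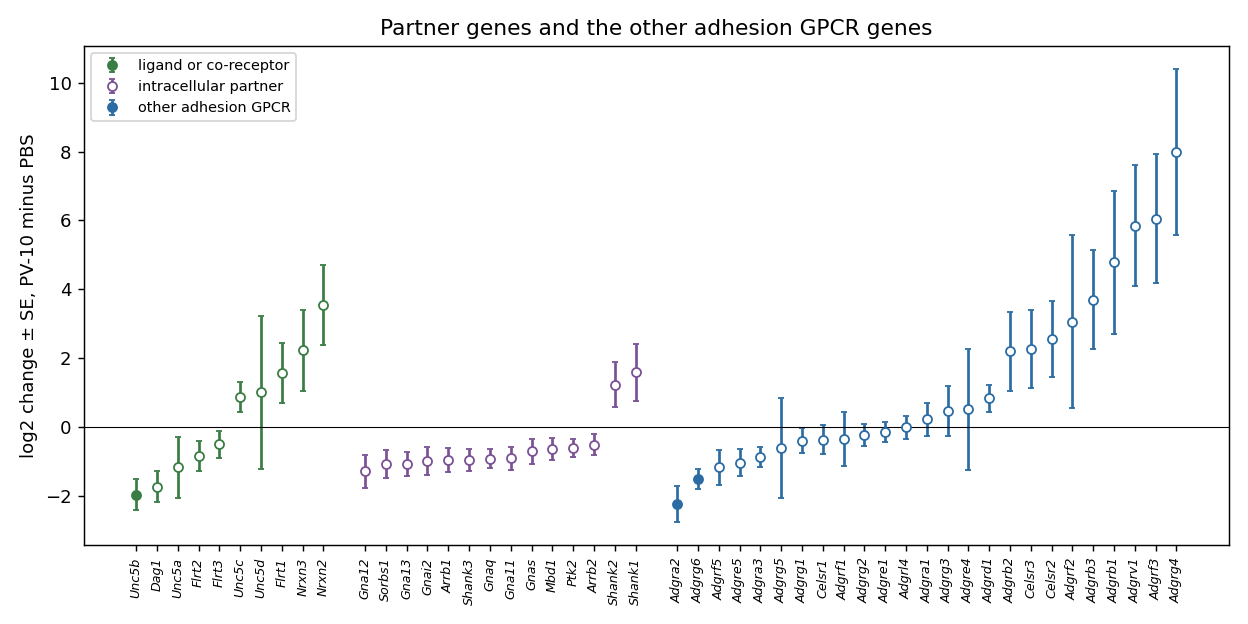
Log2 change, PV-10 minus PBS, with bars of 1 SE for the tested partner genes, 1 of them left out, and other adhesion receptor genes, each list ordered by its change; filled points passed the edgeR test. Unc5b, Adgra2 and Adgrg6 are the filled points, and the genes with changes above 2 carry wide bars.

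The cell types in which teneurins and latrophilins are best known were looked for by their markers. Summed neuronal markers (10 genes) ran from 78.9 to 101 CPM in PBS tumours and from 32.5 to 63.8 in PV-10 tumours, and Syn1 alone averaged 75.9 and 23.1 CPM of this. The other 9 ranged from 0.119 CPM (Rbfox3) to 7.60 CPM (Snap25) in the mean of PBS tumours, with Tubb3 at 3.91 and Elavl4 at 2.48. In PBS tumour 1, 5 of the 10 markers were at 0. Of the 10 markers 4 had a log2 change below 0, namely Syn1, Snap25, Tubb3 and Elavl4. It was above 0 for Rbfox3, Syt1, Nefl, Nefm, Stmn2 and Map2, and the median of the list was above 0. The lower sum therefore does not describe the neuronal list as a set. Summed Schwann cell and glial markers ranged from 47.3 to 86.6 and from 65.2 to 74.4 CPM. Fibroblast and pericyte markers summed to between 3235 and 5724 and between 3336 and 6196 CPM, endothelial markers to between 213 and 487 and between 137 and 418, and epithelial markers to between 485 and 782 and between 470 and 633. Leukocyte markers summed to between 894 and 1441 CPM in PBS tumours and between 1317 and 1429 in PV-10 tumours.

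Skeletal muscle markers were the most uneven, at 101, 22.8 and 7.61 CPM in PBS tumours 1 to 3 and 154, 561 and 7.70 CPM in PV-10 tumours 1 to 3. PV-10 tumour 3, the tumour with the highest latrophilin values of its group, thus also had the least muscle signal of its group. No marker of any of these lists was called by edgeR. In whole tumours, fewer cells of a type and less RNA per cell cannot be told apart, and the part of cell makeup in the members' values was not tested.

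The genes with the pattern most like that of Tenm4 were sought among 11884 genes whose average log2 CPM was 1 or more, by the root mean square difference of log2 CPM over the 6 tumours, each gene centred on its own mean. The nearest were Plec (plectin, 0.363), Kmt2d (a histone H3 methyltransferase, 0.404), Hivep3 (0.482), Srcap (a chromatin remodelling ATPase, 0.483) and Sipa1l3 (0.486), against a median of 1.39 over the eligible genes. Tenm3 was at 0.583 from Tenm4, rank 44, Adgrl1 at 0.620, rank 77, Adgrl2 at rank 585 and Adgrl3 at rank 850. This order is also the order of the members' log2 changes, and Tenm4 was chosen by its values, so the ranks are a description. Plec and Kmt2d had effective lengths of 15152 and 20403 bases, longer than any member.

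For Adgrl3, the most abundant latrophilin, the nearest were Sh3rf1 (0.044), Runx1 (a transcription factor, 0.052), Atp2b1 (a plasma membrane calcium pump, 0.055), Sphk2 (a sphingosine kinase, 0.057) and Med13 (a Mediator subunit, 0.063), against a median of 0.667. In PBS tumours 1 to 3 Runx1 had 460, 463 and 448 CPM, and in PV-10 tumours 1 to 3 it had 132, 168 and 315. Runx1 was picked for its closeness to Adgrl3, so the same tight controls and step up to PV-10 tumour 3 are a description only. Adgrl2 was at 0.189, rank 587, Adgrl1 at rank 2364, Tenm3 at rank 3795 and Tenm4 at 0.853, rank 7607. Tenm4 was thus farther from Adgrl3 than the median eligible gene. This distance grows with the gap between the log2 changes of the genes compared, and Tenm4 was chosen for its fall. Nothing is therefore read from the distance between Tenm4 and Adgrl3.

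Over 17 other ways of processing, no member changed direction. The log2 change ranged from -3.38 to -2.22 for Tenm4, from -2.91 to -1.40 for Tenm3, from -2.27 to -0.81 for Adgrl1, from -2.30 to -1.05 for Adgrl2 and from -2.03 to -0.82 for Adgrl3. Adgrl2 and Adgrl3, not called in the edgeR test, passed in 10 of the 17, while Tenm3 and Adgrl1, called there, did not pass in 7 and in 9. Tenm1 ranged from 0.13 to 4.13 and Tenm2 from 0.12 to 4.16 over the 16 ways that kept them.

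**Figure D5:**
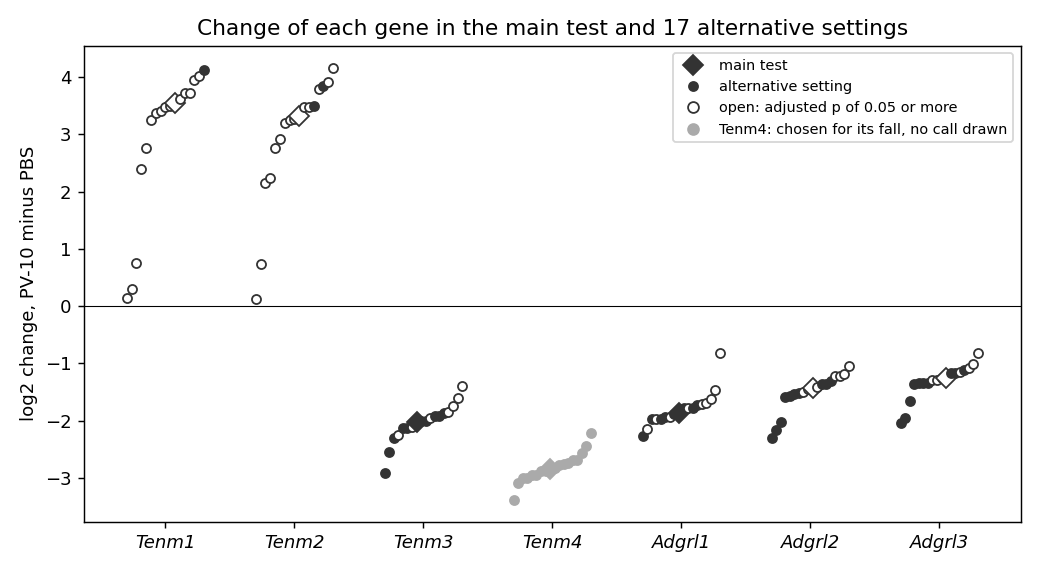
Log2 change, PV-10 minus PBS, of each member in the edgeR test (diamond) and in the other ways of processing (circles), ordered by value within a gene; open symbols did not reach an adjusted p under 0.05, and Tenm4 is drawn in grey without calls. Points of Tenm3, Tenm4 and the latrophilin genes stay below 0 throughout, and Tenm1 and Tenm2 spread from 0.12 to 4.16.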

How the data were processed

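Total RNA of 3 PBS and 3 PV-10 tumours, each from its own mouse, was sequenced from strand-specific libraries. Per the submitters' processing notes and the labels, the authors trimmed reads with cutadapt 1.8.1, used STAR 2.7.7a for alignment to mm10, and RSEM 1.3.0 with Gencode annotation for quantification. The deposited count table holds whole-number counts per gene, not normalized, and the deposited TPM table holds length-scaled values of the same genes. Every table column was matched to its tumour through the library name in the labels.

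Counts were tested with edgeR 4.0.16 (R 4.3.3) by its quasi-likelihood F test with robust fit, default expression filter and TMM scaling. P-values of 22056 genes were adjusted by the Benjamini-Hochberg method, and a gene was called at an adjusted p under 0.05. The biological coefficient of variation was 0.777, and the lowest adjusted p was 0.0443, which many genes share. An effective length is counts over TPM, scaled per library on genes with a single transcript. Other processing used DESeq2 1.42.0 and limma 3.58.1, other scalings and filters, length trends fitted by splines with 5 degrees of freedom, a replicate block, and each tumour left out. Nearest genes used log2 CPM with a prior count of 2. Promoter windows came from RefSeq (GRCm38.p6), and positions from Gencode on mm10.

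The members and the gene lists were chosen with earlier results of these data known. Named were the 7 members, the Flrt genes, Adgrl4, the tested Unc5 genes, up to 8 called genes per list, 5 nearest genes each of Tenm4 and of the most abundant latrophilin, and label markers. Dag1, the G protein and other marker genes, and the overlapping genes, were chosen after their values were seen. The values of 1 partner gene are not reported here.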

Additional observations from a re-analysis of the deposited data

How the results depend on the processing

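Over all genes tested, 423 were called lower and 699 higher. With DESeq2 size factors these counts were 1068 and 1469, with library size alone 1461 and 980, without the low-count filter 2627 and 2037, and with a mean count of at least 50 they were 1112 and 1593. DESeq2 called 2338 and 5875, limma-voom 1231 and 866, limma on log2(TPM + 1) 2755 and 162, and on log2(TPM + 0.1) 2833 and 342. With either length trend removed, edgeR called 0 genes in each direction, members and lists included, while 2602 were lower and 3468 higher at an unadjusted p under 0.05 for the effective length and 2478 and 3304 for transcript length and GC. Leaving out 1 tumour at a time gave 0 to 4515 lower and 1 to 6884 higher, the highest without PV-10 tumour 3. Between 22750 and 28118 genes were tested in those settings. The cause of these shifts was not tested.

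Of the members, 5 were called lower with DESeq2, its size factors, library size alone, no filter, the stricter filter and limma-voom, and 4 with limma on TPM, where Adgrl1 was not. In the same order, these settings called 2338 of 27077, 1068 of 22056, 1461 of 22056, 2627 of 39195, 1112 of 15787 and 1231 of 22056 genes lower. Limma on TPM called 2755 and 2833 of 22056 genes lower. These all-gene numbers also stand beside the lists that follow. Leaving out tumours gave 0 to 5 lower and 0 to 2 higher, and DESeq2 called 1 member, Tenm2, higher (adjusted p = 0.0202). Partner genes called lower numbered 2 with DESeq2 size factors and limma-voom, 3 with library size alone and the stricter filter, 8 with DESeq2, and 11 without a filter and in each TPM setting, with 0 to 14 when tumours were left out. Partner genes called higher numbered 1 with DESeq2 size factors, library size alone and the stricter filter, 2 with DESeq2 and without a filter, and 0 to 2 when tumours were left out. Other adhesion receptor genes called lower numbered 5 without a filter, 4 with DESeq2 and in each TPM setting, and 0 to 5 when tumours were left out. Those called higher numbered 3 without a filter, 1 with the stricter filter and with TPM + 0.1, 6 with DESeq2, and 0 to 7 when tumours were left out.

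Nothing in the labels pairs the tumours that have the same number in both groups. Their deviations from the group mean of log2 CPM correlated at -0.049, 0.071 and 0.072. With 3 tumours per group these values cannot settle whether such tumours share a batch, which was not tested. With the replicate block, 1818 genes were called lower and 1054 higher, 5 members lower, 4 partner genes lower and 1 higher, and 3 other adhesion receptor genes lower. Tenm1 and Tenm2 rest on 0 to 128 counts per library, so their values are imprecise. Member counts include Tenm4, which was chosen for its low values.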
